A study of Caenorhabditis elegans with 2 samples.

Results

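The 9 linker histone (H1) genes of Caenorhabditis elegans, hil-1 to hil-8 and his-24, were examined for binding of the zinc finger protein HINF-1. They were taken by name and are 9 of the 46890 annotated genes, 19973 of them protein-coding, on the 6 chromosomes. HINF-1 was mapped by chromatin immunoprecipitation and sequencing (ChIP-seq), which recovers the DNA bound by a protein, with an antibody to GFP. The animals were of strain RW12232, in which CRISPR placed the tags TY1, EGFP and 3xFLAG on F39B2.1, the hinf-1 gene product, at its own locus. There was 1 group, whole young adults at 65 hours after L1 larvae had been synchronised by bleaching and starvation, with 2 biological replicates, and all animals carried the tag. Peaks are from mixed tissues, and no untagged animals or second condition were used here.

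Linker histones sit on the DNA where it enters and leaves the nucleosome and help to fold nucleosomes into denser chromatin, whereas the core histones H2A, H2B, H3 and H4 form the nucleosome itself. The product of his-24 is the H1.1 variant of the worm, known for a part in germline silencing. RefSeq names the products of hil-2, hil-3, hil-4 and hil-5 histones H1.2 to H1.5, that of hil-1 histone H1.X, that of hil-6 a putative histone H1.6, that of hil-7 histone H1 and that of hil-8 a protein with an H15 domain, the globular DNA-binding domain of linker histones. The human relative of HINF-1, HINFP, is known as an activator of histone H4 genes.

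HINF-1 peaks stood at 5 of the 9 H1 genes, hil-4, his-24, hil-5, hil-3 and hil-2, each with its summit just upstream of the annotated 5' end. A peak was assigned when its summit, the base of highest enrichment, lay within 500 bp of a gene's 5' end. The conservative list, the authors' 567 peaks that repeated between the replicates, had such a summit at 5 of 9 H1 genes and at 1.32% of all protein-coding genes. The optimal list of 630 peaks had the same 5 of 9 genes, with 1.48% of protein-coding genes. The list of replicate 1, with 209 peaks, again held these 5 genes and 0.546% of protein-coding genes, and the list of replicate 2, with 272 peaks, held them and 0.666%. These 4 lists thus held the same 5 H1 genes.

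The 5 bound promoters shared a stretch of sequence at the summit. Below are the 100 bases before the 5' end of 4 of them, and the corresponding stretch far upstream of hil-6, printed to show what is common to them (WBcel235 sequence from RefSeq, 5′ to 3′ on the strand of the gene). Capitals mark the bases common to hil-2, hil-3, hil-4 and his-24 at fixed spacing, from the first to the last run of at least 5 such bases in a row. Single common bases outside that stretch are in lower case. The first run of capitals begins an element of 21 bases, and the last is a run of 8 bases that contains a TATA box, the sequence bound by the basal transcription machinery.
hil-4: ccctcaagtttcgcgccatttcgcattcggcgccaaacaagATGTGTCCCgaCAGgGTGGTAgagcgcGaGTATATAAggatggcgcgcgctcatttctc
his-24: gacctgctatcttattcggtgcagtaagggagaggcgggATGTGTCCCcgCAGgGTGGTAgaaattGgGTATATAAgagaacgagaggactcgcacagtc
hil-3: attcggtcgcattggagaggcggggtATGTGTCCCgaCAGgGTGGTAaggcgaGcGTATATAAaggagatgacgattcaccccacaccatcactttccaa
hil-2: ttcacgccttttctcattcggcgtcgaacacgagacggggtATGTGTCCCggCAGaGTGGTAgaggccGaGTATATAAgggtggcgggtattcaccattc
hil-6: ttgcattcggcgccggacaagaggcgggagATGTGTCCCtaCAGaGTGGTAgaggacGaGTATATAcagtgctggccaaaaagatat
These stretches are V:4754213-4754312 (hil-4), X:14489994-14490093 (his-24), X:8159069-8159168 (hil-3) and IV:6294140-6294239 (hil-2), all on the plus strand, and V:2032443-2032529 on the minus strand (hil-6, from 975 to 889 bp upstream of its 5' end).

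With N for a base that varied, the element reads ATGTGTCCCNNCAGNGTGGTA, in which 18 of 21 positions were fixed. It was followed after a gap of 8 bases by GTATATAA. The 37 bases from the start of the element to the end of that run had 27 fixed positions. Counting from 1 at the first base of the element in hil-4, the element of hil-3 had no substitution, that of his-24 had G10C and A11G, that of hil-2 had A11G and G15A, and that of hil-6 had G10T and G15A. All of these fall at the 3 variable positions. The element was assembled from hil-2, hil-3, hil-4 and his-24 after their sequences had been seen, so their match to it is no finding. The promoter of hil-5, which was not used, matched the element at all 18 fixed positions and the 37-base pattern at all but 1. The stretch upstream of hil-6, also not used, did the same. Both genes belong to the same family as those used. Part of the element, GGGACACA on the other strand, was known from earlier results of these data. These matches are therefore not independent evidence.

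The 5 peaks came in the same order of strength in every list. The signal value below is the authors' own value per peak, with no stated scaling, and it ranks peaks only within its list. The hil-4 peak (V:4754135-4754412, intergenic) was the strongest, with 1252 in the conservative list, where it ranked 5 of 567. It had 518.2 in replicate 1 (rank 5 of 209) and 737.8 in replicate 2 (rank 5 of 272). The his-24 peak (X:14489929-14490173) followed with 900.9 in the conservative list (rank 9), 422.5 in replicate 1 (rank 8) and 490.0 in replicate 2 (rank 9). These 2 genes thus kept their place among the strongest peaks in each replicate.

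The other 3 were weaker. The peak at hil-5 (I:5774425-5774691, intergenic) had 679.2 in the conservative list (rank 10), 296.4 in replicate 1 (rank 10) and 385.2 in replicate 2 (rank 10). The hil-3 peak (X:8159020-8159194, intergenic) had 324.6 in the conservative list (rank 13), 149.7 in replicate 1 (rank 13) and 173.9 in replicate 2 (rank 14). At hil-2 (IV:6294143-6294258, intergenic) the values were 201.7 in the conservative list (rank 19), 88.5 in replicate 1 (rank 17) and 112.8 in replicate 2 (rank 23). The strongest H1 gene stood 6.21 times above the weakest in the conservative list, 5.85 times in replicate 1 and 6.54 times in replicate 2. Even hil-2 lay above the median peak, by 3.12 times in the conservative list, 2.12 times in replicate 1 and 2.30 times in replicate 2, while hil-4 lay 19.4, 12.4 and 15.0 times above it in those lists. The authors also gave the irreproducible discovery rate (IDR) of each peak over the whole list, on a −log10 scale that is higher where the rank repeats better. In the ranked list behind the conservative list it was 5.0 for hil-4, his-24 and hil-5, 4.62 for hil-3 and 4.14 for hil-2. The peak ranked 1 in that list also had 5.0, so this value does not separate the strongest peaks. With 2 replicates of 1 group, these values describe how closely the lists repeat, and no test between genes was made.

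**Figure D1:**
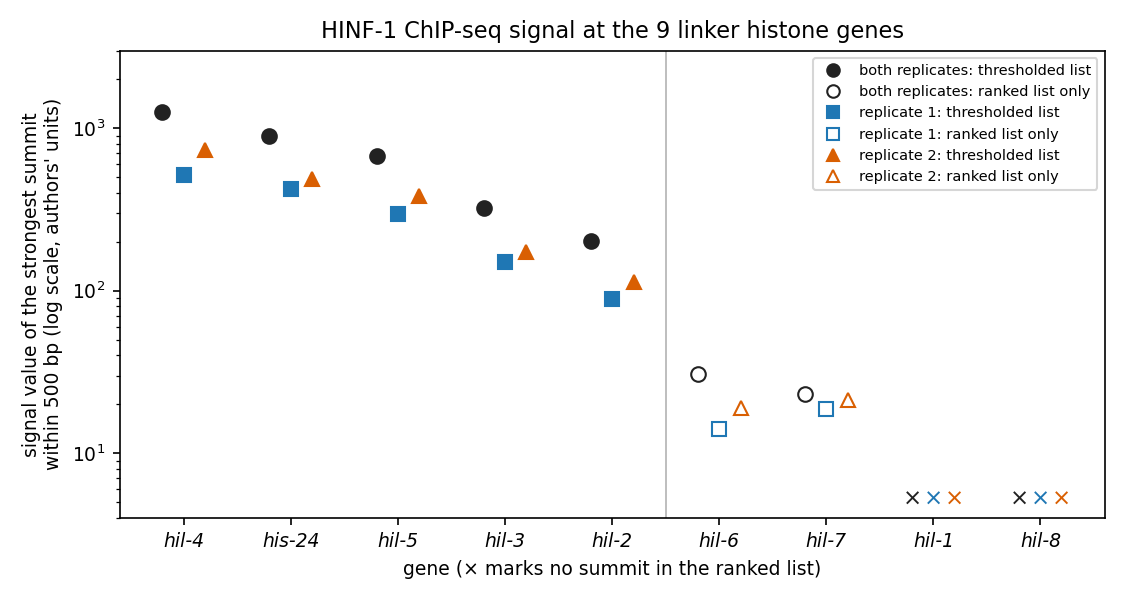
Signal value of the strongest summit within 500 bp of the 5' end of each H1 gene, on a log scale, in the list of both replicates and in each replicate's own list. Filled symbols are peaks of the thresholded lists, open symbols occur only in the ranked lists and crosses mark no summit. The 5 genes left of the line lie at 88.5 or more in every list, hil-6 and hil-7 at 30.6 or less, and hil-1 and hil-8 have no summit.

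The strongest summit of each gene lay at nearly the same place in each list. They were 49, 67 and 63 bp upstream of the 5' end of hil-4 in the conservative, replicate 1 and replicate 2 lists, and 38, 49 and 35 bp upstream of his-24. At hil-5 they were 57, 56 and 51 bp upstream, at hil-3 68, 67 and 62 bp, and at hil-2 30, 40 and 38 bp. The widest spread among the lists, 18 bp at hil-4, is small beside the peaks, which were 116 to 278 bp wide in the conservative list. Across the 263 protein-coding genes with a conservative summit within 500 bp, the median position was 138 bp upstream. In 21 of them (7.98%) the summit lay between 30 and 68 bp upstream. That range was set by the 5 H1 genes, so they are among the 21 by construction. Every replicate peak at the 5 genes covered over 50% of the conservative peak, from 62.1% for hil-2 in replicate 1 to 90.2% for his-24 in replicate 1.

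The element lay at or near these summits. It began 59 bp upstream of the 5' end in hil-4, hil-5 and hil-2, 61 bp upstream in his-24 and 74 bp upstream in hil-3. Of the 15 strongest summits, 1 for each of the 5 genes in the conservative and both replicate lists, 9 lay inside the element and the other 6 within 9 bp of it. All 3 of hil-3 and of hil-5 were inside. The TATA run began 30 bp upstream of the 5' end in hil-4, hil-5 and hil-2, 32 bp upstream in his-24 and 45 bp upstream in hil-3.

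**Figure D2:**
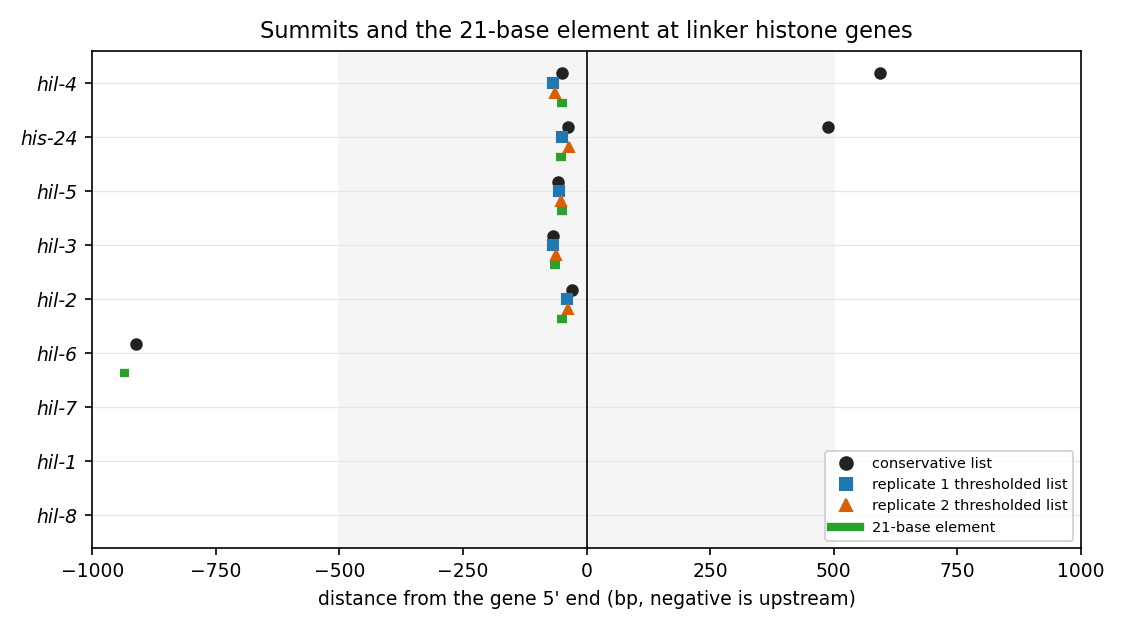
Positions of summits of the conservative list and of both replicate lists within 1000 bp of the 5' end of each H1 gene, with the 21-base element in green. The shaded band marks 500 bp to each side. At the 5 genes with a peak the strongest summits lie 30 to 68 bp upstream beside the element, his-24 and hil-4 have weaker ones 488 and 594 bp downstream, and the hil-6 summit and element lie 912 and 945 bp upstream.

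The 37-base pattern occurred at H1 genes and, with up to 5 mismatches allowed, nowhere else in the genome, while the element alone also occurred elsewhere. The exact element occurred at 12 sites on the 6 chromosomes, and 10 of them lay in conservative peaks. They were at the 5 H1 genes, upstream of hil-6, near the 5' end of K07C5.13, and inside max-2, srh-303 and Y71A12B.10. The 37-base pattern with its TATA run had 4 exact sites and 2 sites with 1 mismatch, and all 6 were at H1 genes and in conservative peaks. The 4 exact sites are those of the genes from which the pattern was assembled, so the 2 sites that it did not fix are those of hil-5 and hil-6. There was no site with 2 to 5 mismatches, and the next 2 sites, with 6, had no conservative peak. Among promoters, taken as 250 bases before to 50 after the 5' end, the exact element was in 6 of 19973 (0.0300%), the 5 H1 genes, 4 of them used to assemble it, and K07C5.13. The searches covered both strands. A match is a description of the letters, not a measured site.

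Exact matches were in 9 of the 20 conservative peaks of highest signal and in 10 of all 567. At most 3 mismatches were found in 14 of the 20 and in 17 of all 567. The peaks of hil-4, his-24, hil-3 and hil-2 are among the 20 and match by construction. Without these 4, exact matches were in 5 of the other 16 and in 6 of the other 563, and at most 3 mismatches in 10 of the 16 and in 13 of the 563. The exceptions among exact matches ran both ways. K07C5.13 at 3826 and max-2, which encodes a kinase known from axon guidance, at 3045 were stronger than any H1 gene, and hil-6 at 76.8 was the weakest of the 10. Y71A12B.10 at 387.0 and srh-303 at 241.9 fell among the H1 genes. These 4 other genes were named after their values were seen. The share of 31-mers that occur once in the genome was counted from 100 bp before to 100 bp after the site. It was 0.995 to 1 at the 5 H1 genes and 0.874 at the hil-6 site. It was lower at the other 4 genes, with 0.377 at K07C5.13, 0.325 in max-2, 0.670 in Y71A12B.10 and 0.602 in srh-303. The part of repeated sequence in these signal values was not tested.

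**Figure D3:**
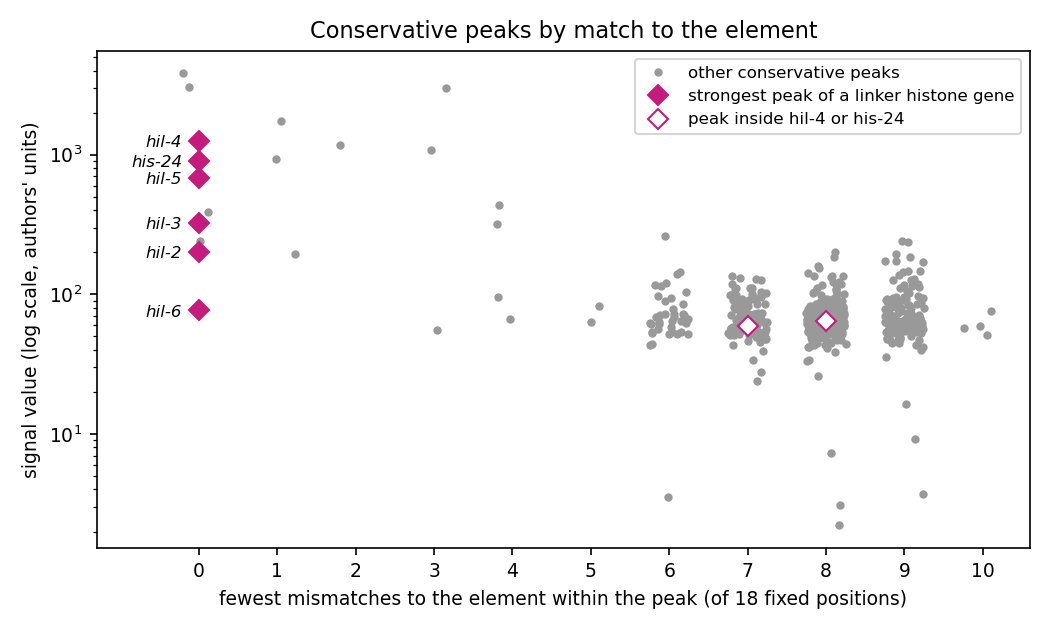
Signal value on a log scale of each of the 567 conservative peaks against the fewest mismatches to the element found inside the peak, of 18 fixed positions, with points spread sideways to be seen. Filled diamonds are the strongest peak of each H1 gene and the upstream peak of hil-6, with 0 mismatches at 76.8 to 1252, 4 of them by construction, and open diamonds are the peaks inside hil-4 and his-24, at 64.2 and 59.7 with 8 and 7 mismatches. Of the other peaks, 544 have 5 or more, at 263.3 or less.

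A second peak near hil-3 carried a near copy of the element. The copy, with 1 mismatch, lay at X:8157296-8157316 on the same strand, 1863 bp upstream of the hil-3 5' end. The signal value of the peak over it was 194.8, rank 21 of 567, just below hil-2, and it was in both replicate lists. No protein-coding gene had a 5' end nearer to it than hil-3.

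The gene hil-6 held the pattern in another place. Within 500 bp of its 5' end no list with an IDR threshold had a summit, and the ranked list of both replicates had a weak one inside the gene, 216 bp downstream, with 30.6 at rank 9510 of 89784. The conservative list had a peak (V:2032351-2032580, intergenic) with its summit 912 bp upstream, at 76.8 and rank 176. It was absent from the thresholded list of either replicate, where the ranked lists had 31.6 in replicate 1 (rank 389 of 53566) and 42.1 in replicate 2 (rank 344 of 51539). The exact element began 945 bp upstream, and the summit lay 13 bp downstream of the end of the element.

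Between the pattern and the hil-6 gene lay an inverted repeat. The pattern's single mismatch in hil-6 was its last base, where the repeat begins. The repeat (V:2031541-2032463) spanned 923 bp, from 909 bp upstream to 14 bases inside the annotated gene, and its ends were inverted copies of each other over 39 bases. The first 20 bases of the end nearer the pattern, in the hil-6 line above, occur 91 times on both strands of the 6 chromosomes. Its end lay 65 bases before the start codon of hil-6. The distance from the pattern to the start codon was therefore 987 bp in hil-6, against 58 to 69 bp in the 5 bound genes. The 65 bases shared a run of 28 with hil-2, beginning 8 bp before its 5' end, and of 21 with hil-3, against 8 or 9 with hil-4, hil-5 and his-24. No annotation of repeats was used here, so the repeat is not named.

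**Figure D4:**
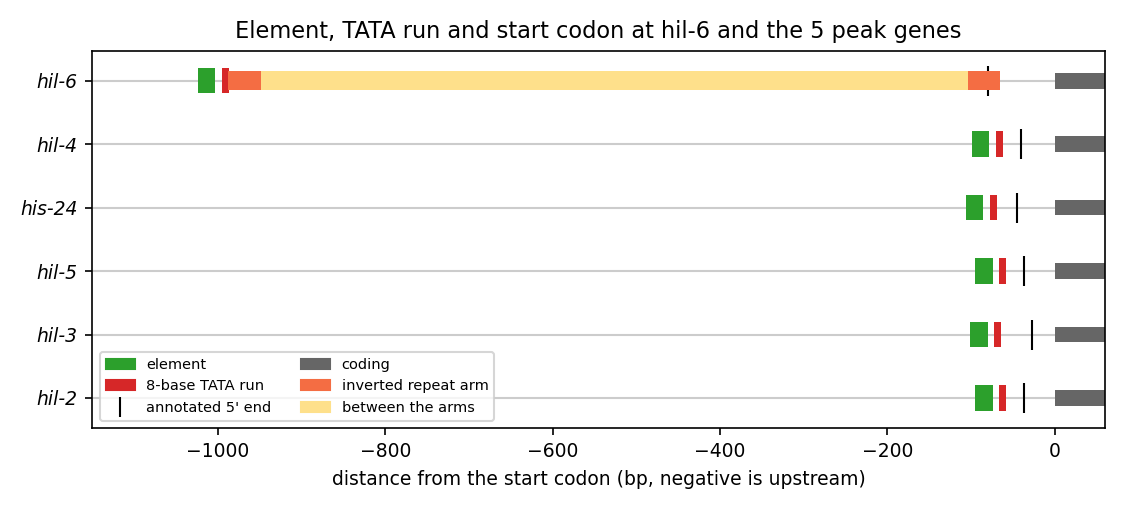
Map to scale of the element, the TATA run, the annotated 5' end and the coding start at hil-6 and the 5 H1 genes with a peak, as distance from the start codon in bp. In hil-6 an inverted repeat of 923 bp lies between the TATA run and the gene, and the pattern ends 987 bp before the start codon, against 58 to 69 bp in the other 5.

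The other 3 genes without a peak had no close match to the element. The fewest mismatches within 500 bp were 6 in hil-1, 7 in hil-7 and 8 in hil-8. In the ranked list of both replicates, hil-7 had a summit 191 bp upstream with 23.2 at rank 26520, while hil-1 and hil-8 had none within 500 bp. That list is long and holds such a summit at 7 of 9 H1 genes and 66.6% of protein-coding genes. The ranked list behind the optimal set had 7 of 9 as well, against 69.8%, and the ranked lists of replicate 1 and replicate 2 had 7 of 9, against 47.7% and 45.2%. The nearest conservative summits were 14321 bp from hil-7, 41264 bp from hil-8 and 41895 bp from hil-1.

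A TATA word stood before the 5 bound genes and not before the other 4, while the 2 sets overlapped in the share of unique sequence. The word, TATATAA or TATAAAA, was chosen after the TATA run had been seen in 4 of the bound genes. It was within 60 bp upstream in 5 of the 5 bound genes and in none of the 4 others, and in 7.41% of all protein-coding promoters. The G+C content from 250 bases before to 50 after the 5' end was 40.9 to 45.5% in the bound genes. In the others it was 24.9% in hil-8, 33.9% in hil-1 and hil-6 and 47.8% in hil-7. None of these fell within the range of the bound genes. The median G+C content over all protein-coding promoters was 34.2%. All 5 bound genes have 2 exons and encode proteins of 191 to 253 amino acids, while the others have 2 to 7 exons and encode 66 to 232 in the longest annotated form. The share of 31-mers occurring once in the genome within 250 bp of the 5' end was 0.964 to 1 in the bound genes and 0.830 to 1 in the others, with hil-6 the lowest. Since the bound genes were defined by their peaks, these are descriptions and were not tested.

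Within 50 bp of the summits, the word GGGACACA was in 5 of 5 H1 windows, 4 of which the element was assembled from. This word is the reverse complement of part of the element. It was in 17 of 567 conservative windows (3.00%) and in 0.621% of all promoters. The word was taken from earlier results of these data, so neither its presence at hil-5 nor these shares are independent evidence. CGTCCG, a core of the site known for human HINFP, and CACGTG were in 0 of 5 H1 windows. They were in 2.29% and 3.00% of the conservative windows and in 3.14% and 5.84% of the longer promoters. CGCGCGC and AGCGCGC were in the hil-4 window only, and CCGCCC only in that of hil-5.

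Weaker conservative peaks lay inside 2 of the bound genes, in coding exons. In his-24 the summit was 488 bp downstream of the 5' end, with 59.7 at rank 362, and 34 bp from the 5' end of the noncoding RNA gene M163.16. In hil-4 it was 594 bp downstream, with 64.2 at rank 287, and neither thresholded replicate list held it. The ranked lists had a hil-4 summit 513 bp downstream in replicate 1 (28.9, rank 531) and 596 bp downstream in replicate 2 (43.8, rank 303). In the ranked list of each replicate the his-24 summit had 24.1 in replicate 1 (rank 1099) and 39.4 in replicate 2 (rank 411), and neither thresholded replicate list held it. The main his-24 summit lay in the noncoding RNA gene M163.19 on the opposite strand, 92 bp from its 5' end. The hil-2 summit was 369 bp from cel-mir-8201. A peak shared by a gene and a noncoding neighbour cannot be assigned to either of them from these lists.

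Other histone genes had peaks too. Among core histone genes, 17 of 71 had a conservative summit within 500 bp, against 1.32% of all protein-coding genes, led by the divergent pair his-67 and his-68 at 2984, the H4 gene his-37 at 1740 and his-59 at 1173. The core histone genes with a peak had 1 to 5 mismatches to the element within 500 bp. The H1 gene hil-5, which had a peak and was not used to assemble the element, had 0. Since the element was assembled from H1 genes, this difference cannot be told apart from the way the element was made. At most 3 mismatches were found in 8 of the 17 core histone genes with a peak and in 5 of the 54 without one. Sites nearest to his-14 and his-46 lacked a conservative peak, and their shares of unique 31-mers were 0 and 0.0628. The shares were 0.780 to 1 at the sites of his-37, his-60, his-64 and his-67, which had one. The his-31 site, with a share of 1, had a peak in the optimal and replicate 2 lists only. The part of repeated sequence in these counts was not tested. By the same rule and beside the same share, of genes for histone supply and chaperones 1 of 14 had a peak, lin-53, which encodes a histone-binding protein, at 63.8. Of heterochromatin and silencing genes 2 of 14 had one, set-2, a histone H3 methyltransferase, at 86.5 and sir-2.1, a sirtuin deacetylase, at 46.6. Many core histone genes lie in repeated copies and share sequence, so they are not independent of each other.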

How the data were processed

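ChIP-seq peak lists of 2 biological replicates of 1 group were the starting point. Per the labels, chromatin was sonicated, the size range was 200 to 800 bp and the assembly is ce11. Neither the peak caller nor the sequencing depth is given in the sources used here. The authors deposited 8 lists, of which 4 are ranked. Column 7 is the authors' signal value per peak, with no stated scaling. The summit offset, which counts bases from the peak start, is the authors' deposited column 10. The ranked lists also hold the −log10 of the global IDR as the authors deposited it, and 2 corresponds to an IDR of 0.01. Of the columns of the ranked lists, 32 carry no sample name and were not used.

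Genes came from Ensembl release 115 and sequence from WBcel235, the assembly named ce11. All coordinates are 1-based. Summits were placed from the peak start and offset, and ranks run from the highest signal within each list. The element was searched with mismatches on both strands, and the share of 31-mers occurring once was counted. The inverted repeat was the outermost one with arms of at least 20 bases between the pattern and the gene. Counts of members are given beside the same share over 19973 protein-coding genes, with no test, since genes of 1 genome are not replicates. The named genes are the 9 members, genes within 500 bp of their summits and, per comparison list, up to 4 genes with a peak by signal. The members, the lists and the word GGGACACA were chosen with earlier results of these data known. Alternatives were other windows, gene ends, lists and word windows, and each replicate alone. Summit placement and pattern search were tested on simulated data. Python 3.11.15, numpy 2.4.6, pandas 2.3.3 and matplotlib 3.10.9 were used.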

Additional observations from a re-analysis of the deposited data

How the results depend on the processing

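No paired analysis was possible because both samples belong to 1 group. The count of H1 genes with a conservative peak was 5 of 9 without replicate 1 and 5 without replicate 2, and 5 with a 200 bp window, other gene 5' ends, the nearest gene only, any base of the peak, the upper part of the list by signal, the 100 highest signals and the optimal list. With a window of 1000 bp it was 6, the added gene being hil-6. The 5 peaks ranked 5 to 19 in the conservative list, with summits 30 to 68 bp upstream. The 200 bp window and the cuts by signal therefore could not change the count. Among the thresholded lists, the rank of an H1 peak moved by at most 4 places (hil-2, rank 23 without replicate 1) and a summit by at most 18 bp (hil-4). Ranks were lower in the ranked list of both replicates, which holds 89784 peaks. There hil-4 ranked 6, his-24 10, hil-5 13, hil-3 28 and hil-2 53. Of the words searched, the counts in H1 windows changed by more than 1.5 times at 5 settings, CGCGCGC and AGCGCGC to 0 within 25 bp, TTTCAG to 1 within 100 bp and 3 within 150 bp, and TGATAA to 1 within 150 bp. No value changed direction. The depth of sequencing is unknown, so no interval can be given for a signal value, and a missing peak does not show that HINF-1 was absent.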

Other observations

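The exact element also occurred at 2 sites without a conservative peak. On chromosome II, 820 bp from the 5' end of ZK177.1, the ranked list had a value of 19.8 at rank 39277 of 89784. On chromosome V, inside emb-4, a gene for a helicase of RNA splicing, no ranked peak covered the site, where 0.597 of 31-mers occur once in the genome. Against the 37-base pattern both sites had 6 mismatches, all of them downstream of the element. Of the 7 sites with 1 mismatch, 3 were in conservative peaks, in lin-9 at 925.2, upstream of his-37 at 1740 and upstream of hil-3 at 194.8. These genes were named after their values were seen.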
